A study of Mus musculus with 24 samples.

Results

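The genes described here are 10 genes of the choroid plexus, the tissue that hangs into the brain ventricles beside the hippocampus: Ttr, Enpp2, Kl, Folr1, Clic6, Kcne2, Slc4a5, Otx2, Aqp1 and Kcnj13. They were taken as a named list and matched by symbol, and all 10 were found among the 47069 gene IDs of the count files. RNA of the hippocampus of male mice was sequenced, with 18 libraries in 6 groups of 3 and the tissue of 3 mice pooled in each library. The study compared mice without Kdm5c, a histone H3K4 demethylase, with their controls.

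The first line carried a null allele of Kdm5c (Kdm5c-/y, called KO here) in a mixed C57/129 F1 background. KO and wild-type mice were either untreated or had spent 1 h in an unfamiliar box with tubing and toys (novelty), which gives 4 groups. In the second line, kept in C57BL/6J, the mutant (ifKO) combined the floxed allele Kdm5c f/f with CaMKIIα-creERT2, an inducible Cre recombinase driven by a promoter of excitatory forebrain neurons. These ifKO mice and their controls were both untreated, and the sample titles of the controls read wt. Use of Cre or tamoxifen in those controls was not given in the sources used here. All mice were 2 to 4 months old. The null line was read as single 50 nt reads on 1 flowcell and the inducible line as paired 75 nt reads on another, so line, strain, read type and flowcell cannot be told apart. The extraction text speaks of cultures, while tissue and source labels name hippocampus. Nothing in the labels names which mice went into which pool, and the p-values of the main tests measure the spread between these pools. Those from fits without a low-count filter are limited in this, as given below.

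The choroid plexus is a sheet of secretory epithelium over a vascular stroma, and it makes cerebrospinal fluid. Its epithelial cells share tight junctions with each other, move ions and water from blood to ventricle, and secrete carrier proteins. It lies against the hippocampal fimbria, so a dissected hippocampus can bring some of it along. The genes differ in how much they belong to this tissue. Ttr, Folr1, Kcne2 and Slc4a5 are known in the brain mainly from the epithelium, Enpp2 is also made by oligodendrocytes, and Kl is also made by neurons. In bulk tissue such as this, fewer cells of a type and less RNA per cell cannot be told apart.

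The libraries held 16 to 45.6 M counts in genes. Markers of hippocampal neurons summed to 889 to 1052 counts per M counts in genes (CPM) in 16 of the libraries, and to 966 and 923 CPM in the other 2, which are described next. Kdm5c itself was counted at 63.3 to 100.3 CPM in every library, KO and ifKO included. A count over the whole gene does not show a deleted exon, so this is no check of the genotype labels. In the chi-square distance between libraries of 1 group, novelty library 1 of the wild type and novelty library 2 of the KO stood farthest from their groups (19.5 to 40.0 per degree of freedom, against 3.18 to 9.21 in all other pairs). Neither stood out in the choroid plexus genes.

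2 libraries stood apart in all 10 genes: library 2 of the untreated KO mice and library 1 of the controls of the inducible line. Each of the 10 genes was higher in both of them than in every one of the other 16 libraries. The summed level of the 10 genes was 1035 CPM in untreated KO library 2 and 804 CPM in control library 1, against 142 to 252 CPM (median 201) elsewhere. 1 of these libraries is a mutant and the other a control, and they come from different lines and flowcells. They had 22 and 38.5 M counts, inside the range of the others.

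**Figure D1:**
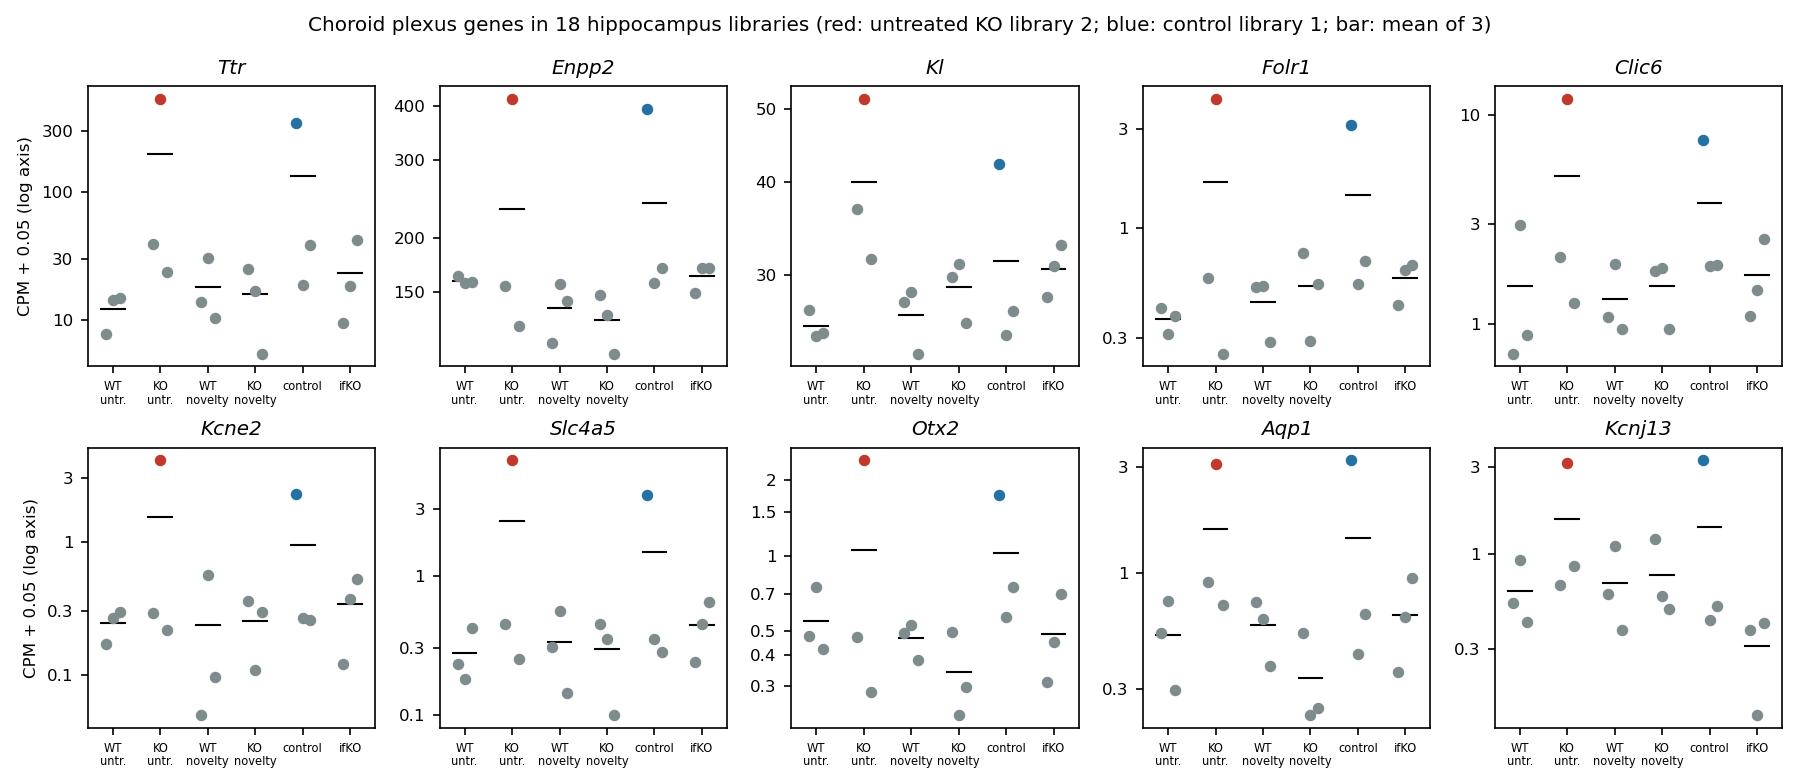
Level of each of the 10 choroid plexus genes in the 18 libraries, as CPM + 0.05 on a log axis that differs between panels. Each point is 1 library, the short line is the mean of the 3 libraries of a group, and the red point (untreated KO library 2) and the blue point (control library 1) lie above all other points in every panel.

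The start regions of genes with large, small and differing rises are shown because the genes rose together in the same libraries. The 250 bases before the start of transcription were read from RefSeq promoter entries (GRCm38.p6), which held 6 of the 10 genes, with 10 start sites. The sequences were searched on both strands for TAATCC, the core bound by OTX2 and its relatives, and for TATAAA, the TATA box; neither motif contains the other. Capitals mark a match. Kcne2 and Kcnj13 differed in the ratio between the 2 high libraries, Kl had the smallest fold, and Otx2 encodes the factor whose core was searched.
Kcne2, chr16:92292139-92292388, plus strand: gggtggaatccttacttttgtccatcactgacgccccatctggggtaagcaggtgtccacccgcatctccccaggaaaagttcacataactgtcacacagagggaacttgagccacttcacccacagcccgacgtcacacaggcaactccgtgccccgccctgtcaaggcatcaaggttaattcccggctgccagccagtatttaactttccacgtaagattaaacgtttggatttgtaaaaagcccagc
Kcnj13, chr1:87394730-87394979, minus strand: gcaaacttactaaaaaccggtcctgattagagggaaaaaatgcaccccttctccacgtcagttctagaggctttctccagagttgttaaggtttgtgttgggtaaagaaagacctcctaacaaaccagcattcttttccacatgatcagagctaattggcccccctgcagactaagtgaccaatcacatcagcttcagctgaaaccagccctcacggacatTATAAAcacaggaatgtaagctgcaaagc
Kl, chr5:150952357-150952606, plus strand: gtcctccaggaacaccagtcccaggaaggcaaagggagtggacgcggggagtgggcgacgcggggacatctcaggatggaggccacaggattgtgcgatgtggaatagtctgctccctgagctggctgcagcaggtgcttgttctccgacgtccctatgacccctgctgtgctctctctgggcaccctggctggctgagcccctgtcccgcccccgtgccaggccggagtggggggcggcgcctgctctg
Otx2, first start, chr14:48667645-48667894, minus strand: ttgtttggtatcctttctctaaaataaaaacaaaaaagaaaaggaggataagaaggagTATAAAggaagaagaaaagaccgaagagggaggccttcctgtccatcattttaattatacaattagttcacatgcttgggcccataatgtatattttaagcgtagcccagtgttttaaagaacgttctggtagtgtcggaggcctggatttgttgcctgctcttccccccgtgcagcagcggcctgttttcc
None of these 4 windows overlaps an annotated exon. TATAAA begins 29 bases before the start in the Kcnj13 window and 192 bases before it in the Otx2 window. Over all 10 start sites TATAAA was found in 3 and TAATCC in 1, another start of Otx2. Of 32851 windows of the same length, 12.4% held TATAAA and 6.25% held TAATCC. The base composition also differed among the 4: 66.8% G and C in Kl, 52.4% in Kcne2, 45.2% in Kcnj13 and 42.0% in Otx2, where the median of all windows is 52.4%. Neither of the 2 motifs searched was thus common to all 4 windows, and no other motif was searched.

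Ttr (transthyretin) is secreted into cerebrospinal fluid, where it carries thyroid hormone and retinol-binding protein. It had the largest excess in CPM of the 10 in both high libraries. The 3 untreated wild-type libraries held 7.66, 14.1 and 14.7 CPM of Ttr, and the 3 untreated KO libraries 38.8, 533.5 and 23.4 CPM. After novelty the wild-type libraries held 13.8, 30.2 and 10.3 CPM and the KO libraries 25, 16.7 and 5.38 CPM. In the inducible line 343.6, 18.7 and 38.6 CPM were found in the controls, and 9.42, 18.2 and 42.1 CPM in ifKO. All 3 untreated KO libraries therefore lay above all 3 untreated wild-type libraries, as in 13.6% of all tested genes. Every other pair of compared groups overlapped in Ttr. Untreated KO library 2 was 17.2 times the mean of the other 2 libraries of its group and control library 1 was 12 times that of its own. Without these 2 libraries, the group means ran from 12.1 CPM in untreated wild type to 31.1 CPM in untreated KO, and the single libraries still spread 7.83-fold.

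Enpp2 (autotaxin) makes lysophosphatidic acid from lysophospholipids, and Kl (klotho) is a co-receptor for FGF23 that is also shed into the fluid. Enpp2 stood at 414.7 CPM in untreated KO library 2 and at 393.7 CPM in control library 1, against 109 to 171 CPM in the other 16. These are 2.95 and 2.40 times the rest of the group. Kl stood at 51.6 and 42.2 CPM, 1.52 and 1.64 times the rest of the group. The excess of Enpp2 in CPM was the second largest of the 10, at 54.6% and 73% of that of Ttr, and that of Kl was 3.5% and 5.2% of it. For Kl the untreated wild-type libraries held 26.9, 24.8 and 25 CPM and the untreated KO libraries 36.7, 51.6 and 31.5 CPM. The groups do not overlap, and the KO libraries other than library 2 were also above every wild-type library. In 13.6% of all tested genes all untreated KO libraries likewise lay above all untreated wild-type libraries. After novelty Kl stood at 26.5 ± 2.65 CPM in wild type and at 28.8 ± 2.73 CPM in KO (mean ± SD, n = 3 libraries), with overlapping ranges. In the inducible line Kl stood at 42.2, 24.9 and 26.8 CPM in the controls and at 28, 30.7 and 32.8 CPM in ifKO, so that all 3 ifKO libraries lay between control library 1 and the other controls.

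The channels and transporters of the epithelium were near the floor of detection in most libraries. Kcne2, a subunit that modifies potassium channels, had no count in 1 library and at most 0.509 CPM in the 16, and reached 4.04 CPM (89 counts) in untreated KO library 2 and 2.25 CPM (85 counts) in control library 1. Slc4a5, a sodium bicarbonate cotransporter, went from 0.0494 to 0.592 CPM in the 16 to 6.72 and 3.75 CPM in the high libraries. That is 22.4 times the rest of the group in the KO library and 14.1 times in the control library, the largest fold of the 10 in both. Clic6, an intracellular chloride channel protein, stood at 11.9 and 7.53 CPM, against 0.668 to 2.92 CPM elsewhere. Aqp1, the water channel of the apical membrane, stood at 3.04 and 3.17 CPM, against 0.179 to 0.902 CPM. Kcnj13, the inward rectifier Kir7.1, stood at 3.09 and 3.20 CPM, against 0.0797 to 1.16 CPM. In the 16 other libraries each of these 5 genes therefore stayed under 3 CPM.

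Folr1 and Otx2 complete the list. Folr1, the receptor that carries folate across the epithelium, stood at 4.13 and 3.07 CPM in the high libraries, against 0.201 to 0.712 CPM. Otx2, a homeobox factor needed for the plexus to form and to be kept, stood at 2.36 CPM (52 counts) and 1.69 CPM (64 counts), against 0.179 to 0.697 CPM. It was the least abundant gene of the 10 in both high libraries, by CPM and per kb of exon. The annotation places genes over Enpp2 (Gm26684), Folr1 (Anapc15), Otx2 (Otx2os1) and Kcnj13 (Gigyf2) on the opposite strand and 2410124H12Rik over Clic6 on the same strand. The strand setting of the counting was not given in the sources used here, so reads of these neighbours cannot be told apart from those of the listed gene.

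The 2 high libraries did not differ from each other by 1 common factor. They also differ in line, strain, read type and flowcell, which enter the ratio of each gene and cannot be taken out. In the rest of the 2 groups Kcnj13 averaged 0.712 and 0.423 CPM and Otx2 0.327 and 0.608 CPM, while Kcne2 averaged 0.205 and 0.214 CPM. As a ratio of the level in untreated KO library 2 to that in control library 1, Kcne2 had 1.80 (95% counting interval 1.32 to 2.45), Slc4a5 1.79 (1.41 to 2.27), Clic6 1.58 (1.33 to 1.88) and Ttr 1.55 (1.51 to 1.59). Kcnj13 had a ratio of 0.96 (0.71 to 1.31) and Aqp1 of 0.96 (0.70 to 1.3). The intervals cover counting error only, and each library is 1 pool, so the difference between the genes has no replicate. Between them lay Otx2 with 1.39 (0.95 to 2.04), Folr1 with 1.35 (1.01 to 1.79), Kl with 1.22 (1.13 to 1.32) and Enpp2 with 1.05 (1.03 to 1.08). Taking the excess over the rest of the group in place of the level gave 1.88 for Kcne2, 1.87 for Otx2, 1.84 for Slc4a5, 1.81 for Clic6, 1.60 for Ttr, 1.51 for Folr1, 1.19 for Enpp2, 1.07 for Kl, 0.86 for Kcnj13 and 0.85 for Aqp1. Otx2 thus moved up in the order and Enpp2 and Kl changed places, while Kcnj13 and Aqp1 were lowest on both scales. Ttr made up 51.5% of the summed CPM of the 10 genes in untreated KO library 2 and 42.7% in control library 1, against 3.78 to 16.7% in the 16 others.

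Per kb of exon, a scale that allows genes to be compared, the excess was dominated by Ttr. It came to 424 CPM per kb in untreated KO library 2 and 266 CPM per kb in control library 1. Enpp2 followed with 47.5 and 39.8 CPM per kb, and the other 8 genes had excesses between 0.257 and 2.63 CPM per kb. In the 16 other libraries the order at the top was different: the median level of Enpp2 was 27.0 CPM per kb, that of Ttr 14.7 and that of Kl 2.98.

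**Figure D2:**
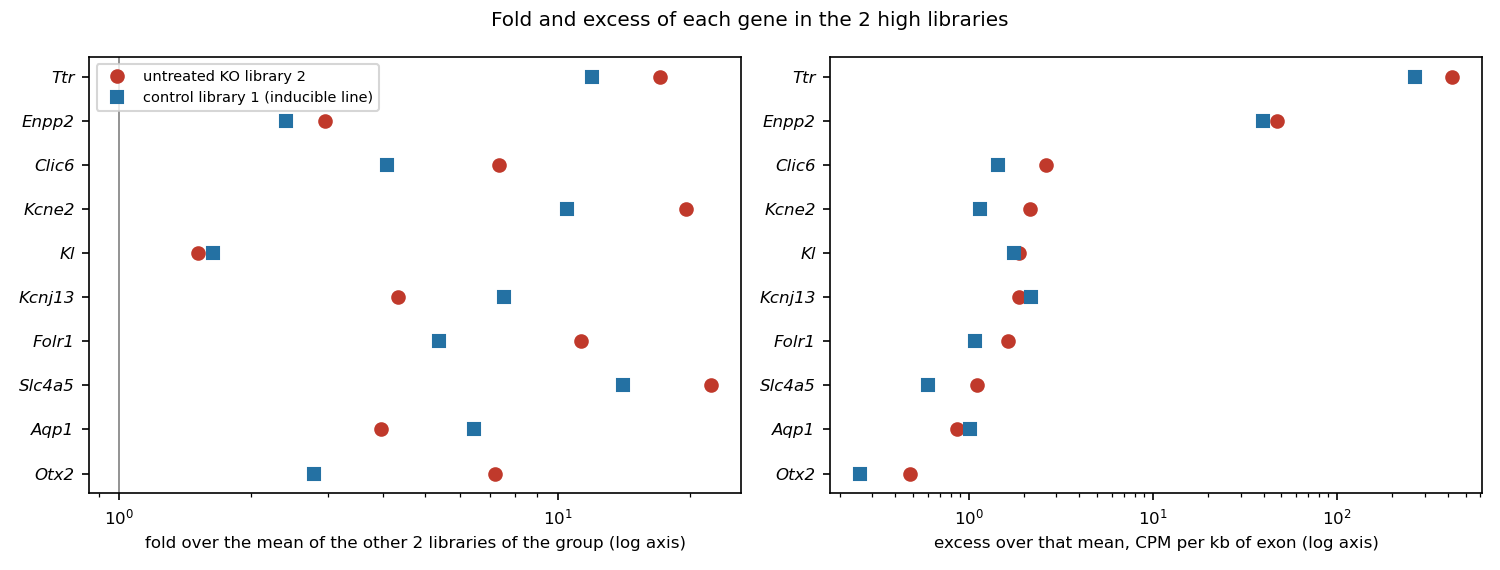
Left, level of each gene in the 2 high libraries as a multiple of the mean of the other 2 libraries of the same group (log axis); right, the excess over that mean in CPM per kb of exon (log axis). The fold runs from 1.52 for Kl to 22.4 for Slc4a5 in untreated KO library 2 (red circles), while Ttr has the largest excess in both libraries.

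The 10 genes also moved together among the other libraries, at a much lower level. Each gene's deviation from its group mean was correlated with that of the mean of the other 9. Pearson's r was 0.84 to 0.96 over 18 libraries and 0.52 (Kcnj13) to 0.86 (Ttr) over the 16 without the high ones, as a description, since counts of few reads and library depth are shared by all genes of a library. Among the 16, ifKO library 3 had the highest summed level (252 CPM, with 42.1 CPM of Ttr) and novelty library 3 of the KO the lowest (142 CPM, with 5.38 CPM of Ttr). Without Ttr, Enpp2 and Kl, the remaining 7 genes summed to 35.3 and 24.7 CPM in the high libraries and to 2.27 to 6.12 CPM in the 16.

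**Figure D3:**
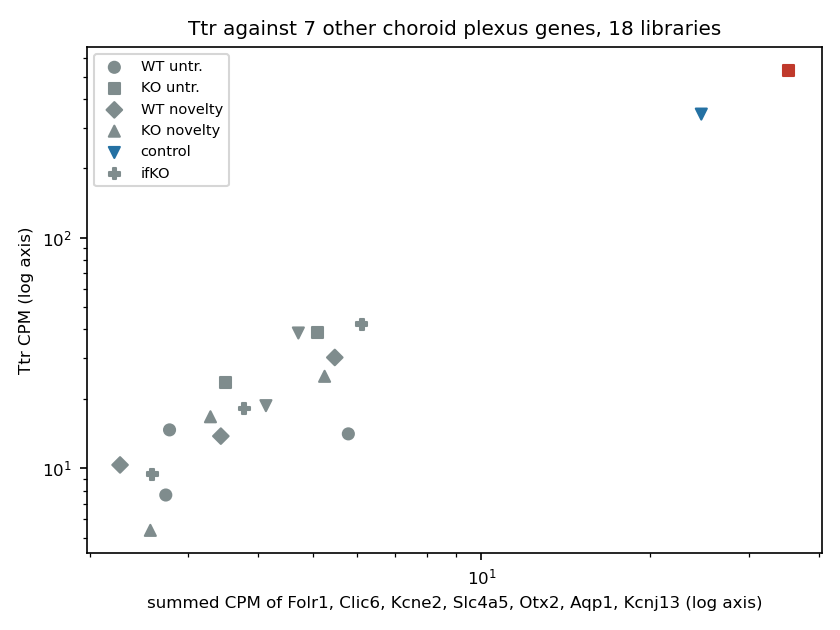
Ttr level against the summed level of Folr1, Clic6, Kcne2, Slc4a5, Otx2, Aqp1 and Kcnj13 in each of 18 libraries (CPM, both axes log). Marker shapes give the group; untreated KO library 2 (red) and control library 1 (blue) lie at the upper right, at 35.3 and 24.7 CPM of the 7 genes, and the 16 other libraries lie between 2.27 and 6.12 CPM.

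In the test of untreated KO against wild type, none of the 8 genes that passed the low-count filter was called, while 1.24% of all 16392 tested genes were (edgeR quasi-likelihood test, adjusted p under 0.05). Kcne2 and Slc4a5 did not pass the filter in the null line. All 8 fold changes were positive, with a median log2 fold change of 1.40 against 0.00 over all tested genes, and 5 had an unadjusted p under 0.05. Ttr had a log2 fold change of 4.00 ± 1.01 (SE), adjusted p = 0.0923. Kl had 0.63 ± 0.15, adjusted p = 0.0749, the smallest of the 8. DESeq2 called both (adjusted p = 0.0128 for Ttr and 0.00856 for Kl), and edgeR without the low-count filter called 7 of the 10. Of all genes, DESeq2 called 1.1% higher and edgeR without the filter 0.93%. Without untreated KO library 2 the median was 0.26, 6 of the 8 were positive, and again none was called. Ttr then stood at 1.31 ± 0.51 (adjusted p = 0.551) and Kl at 0.39 ± 0.11 (adjusted p = 0.164). For Enpp2 and Otx2 the sign turned, from 0.53 to −0.21 and from 0.81 to −0.58. Ttr and Kl, 2 of the 8, had all KO libraries above all wild-type libraries, as did 13.6% of all tested genes.

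Folr1, Clic6, Aqp1 and Kcnj13 show how far 1 library set the estimates. With all libraries, their log2 fold changes in untreated KO were 2.18, 1.64, 1.56 and 1.23. Without untreated KO library 2 they were 0.27, 0.10, 0.68 and 0.24, each with a standard error of 0.43 to 0.51.

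In the inducible line the same genes pointed the other way. None of the 10 genes was called in ifKO against control, where 0.645% of 17367 tested genes were. All 10 fold changes were negative, with a median of −1.31 against 0.00 for all genes, and 5 had an unadjusted p under 0.05. Ttr had −2.54 ± 0.87 (adjusted p = 0.503) and Kcnj13 −2.34 ± 0.81 (adjusted p = 0.511). DESeq2 called 0 of the 10, and edgeR without the low-count filter called 9 lower, all but Kl, with control library 1 still in the fit, as it did 0.265% of all genes. Without control library 1 the median was −0.07 and 4 of the 10 were positive. Ttr then stood at −0.32 ± 0.44 and Enpp2 at −0.0021 ± 0.059, while Kcne2, Slc4a5, Aqp1 and Kl had positive values of 0.39, 0.54, 0.23 and 0.24. Kcnj13 was the 1 gene of the 10 with all ifKO libraries below all controls (0.332, 0.0797 and 0.366 CPM against 3.20, 0.383 and 0.464 CPM), as were 5.61% of all tested genes; its smallest gap, 0.366 against 0.383 CPM, rests on 13 and 14 counts.

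**Figure D4:**
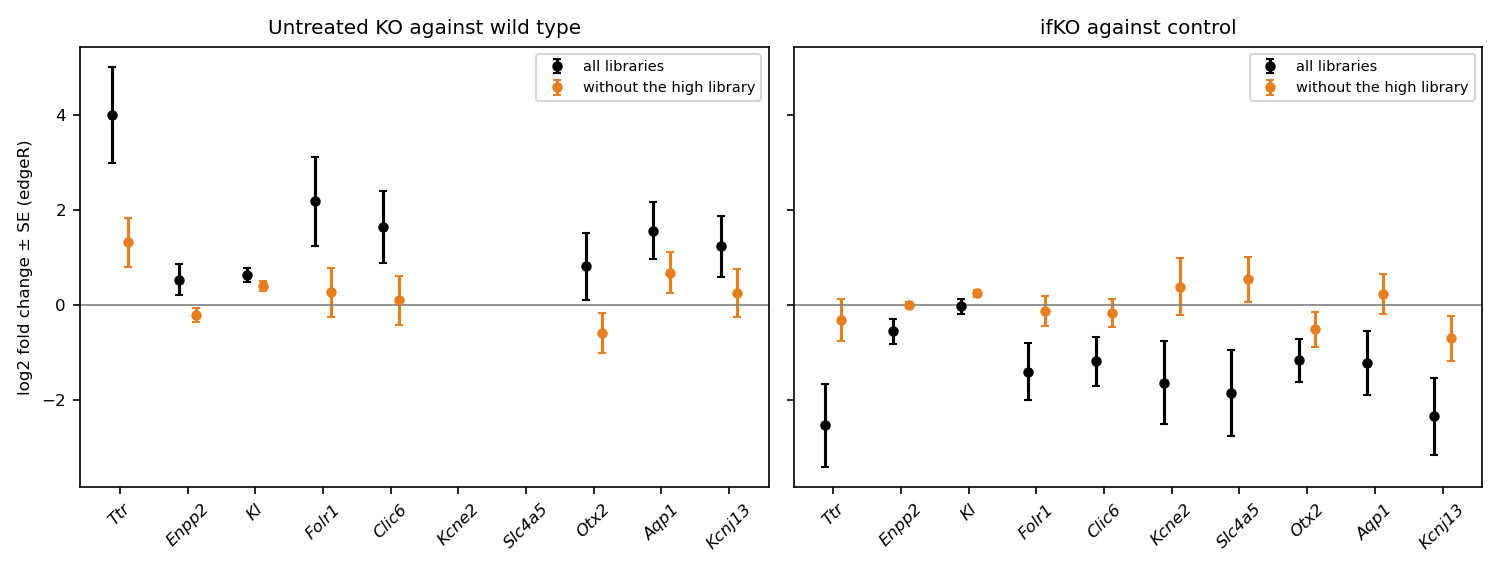
Log2 fold change ± SE (edgeR) of each gene in untreated KO against wild type (left) and ifKO against control (right), with all libraries (black) and without the 1 high library of that comparison (orange). With all libraries the tested genes lie above 0 on the left and below 0 on the right; without the high library the medians are 0.26 and −0.07. Kcne2 and Slc4a5 were not tested on the left.

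The difference between the 2 mutants, taken in 1 fit of all 18 libraries, carries both high libraries. As 1 is a mutant of the null line and the other a control of the inducible line, both raise this difference. The difference was positive for all 10 genes, with a median of 3.19 and 9 genes at an unadjusted p under 0.05, but none was called (0.114% of 17508 tested genes were). Ttr had the largest difference, 6.53 ± 1.57 with an adjusted p of 0.213. DESeq2 called Ttr (adjusted p = 0.0204) and 0.177% of all genes higher, and edgeR without the low-count filter called 9 of the 10 and 0.211% of all genes higher. With both high libraries left out, the median was 0.21 and 6 of the 10 differences were positive.

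Exposure to novelty was compared in the fit of the 12 libraries of the null line. Untreated KO library 2 is one of these and enters the spread of every comparison of that fit. In wild type, none of the 8 tested genes was called by edgeR (0.384% of all genes were) and 0 had an unadjusted p under 0.05. DESeq2 called none of the 4 to which it gave an adjusted p. The median was 0.11, and 5 were positive. Ttr had 0.56 ± 0.98 and Kl 0.04 ± 0.15. With the high libraries left out, Ttr had 0.55 ± 0.48 and the smallest adjusted p of the 8 was 0.597 (0.87 with them). Novelty in KO mice gave 8 negative values with a median of −1.53, again with none called by edgeR (0.11% of all genes) or DESeq2, and with 5 at an unadjusted p under 0.05. Without the low-count filter edgeR called 6 of the 10 lower, and 0.0839% of all genes. Ttr there had −3.64 ± 0.99 (adjusted p = 0.33). That comparison and the untreated KO comparison share the untreated KO libraries, library 2 among them. Without it the median of novelty in KO was −0.15, with 2 of 8 positive.

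KO against wild type after novelty, taken from that same fit of the null line, gave 4 positive and 4 negative values with a median of 0.03. None was called by edgeR (1.34% of all genes were) or DESeq2, and none had an unadjusted p under 0.05. Folr1 had 0.30 ± 1.04, Aqp1 −0.83 ± 0.76 and Ttr −0.20 ± 0.97. Neither group of this comparison holds a high library, but the spread was estimated with untreated KO library 2. With it left out, the values of these 3 genes were 0.30 ± 0.45, −0.83 ± 0.48 and −0.20 ± 0.47, and the smallest adjusted p of the 8 was 0.757 (0.91 with it). The change of the KO effect with novelty was negative for all 8 with a median of −1.37, no gene of the whole table was called (0%), and 3 of the 8 had an unadjusted p under 0.05. DESeq2 called none of the genes, and edgeR without the low-count filter called Ttr lower, as it did 0.00699% of all genes. Without untreated KO library 2 its median was −0.03.

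Other genes of the choroid plexus were read from a list of 46 further names, 44 of which were matched (Ecrg4, 1 of the unmatched, is another name of a matched gene). Of these, 20 were above all of the 16 other libraries in both high libraries. The same held for 74 of 15738 genes with at least 0.5 CPM on average, the 10 left out. Only 33 of the 44 reached that level, so the 2 counts do not cover the same range of genes. Among the genes of the list most like the 10 in pattern, Tmem72, a membrane protein, was 16.4 times the rest of the group in untreated KO library 2 and 12.8 times in control library 1. F5, coagulation factor V, was 9.02 and 5.76 times, and Cldn2, a claudin of leaky tight junctions, 6.70 and 2.93 times. Other genes on the list did not follow: Slc22a8, an organic anion transporter, was 0.77 and 1.19 times the rest of the group, and Slc29a4, a monoamine transporter, 1.00 and 0.96 times. The summed level of the list was 576 and 549 CPM in the high libraries, against 401 to 467 CPM.

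3 of the 35 tested genes of that longer list were called higher in untreated KO (1.09% of all tested genes were called higher), 2 of these also after novelty (1.2%) and 1 in ifKO (0.616%). Their pattern was not that of the 10 genes. Stra6, the receptor for retinol-binding protein, stood at 34.1, 33.9 and 34.4 CPM in untreated KO against 15.7, 20.1 and 17.2 CPM in wild type, so that library 2 was level with its group. Its log2 fold change was 0.93 ± 0.09 in untreated KO, 0.78 ± 0.09 after novelty and 1.09 ± 0.10 in ifKO, with adjusted p-values of 7.5e-05, 0.000452 and 0.000104. It passed the threshold in every one of these fits with a library left out. Cldn3 (2.83 ± 0.64, adjusted p = 0.0495) and Mia (1.96 ± 0.44, adjusted p = 0.0495) were called in untreated KO at levels under 1 CPM, and Cldn3 lost the call in 5 and Mia in all 6 of the fits with a library left out. Without untreated KO library 2 their values were 2.85 and 1.84, close to those with it. Cldn3 was also called after novelty (3.84 ± 0.81, adjusted p = 0.0316), and lost that call in 4 of 6.

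The pattern of the 10 was also compared with that of all other genes, as a description. Likeness was taken as Pearson's r over 18 libraries between a gene's deviation from its group mean and that of the mean of the 10 genes, for 15738 genes with at least 0.5 CPM on average. F5 had 0.97, Tmem72 0.96, 1500015O10Rik (the secreted peptide Ecrg4) 0.93 and Mfrp 0.91. These 4 were also the genes that in both high libraries exceeded 2 times the highest of the other 16. The next in order were Cldn2, Lbp, Mycbpap, Col8a2, Trpv4, Col8a1, Abca4, Commd3, Sspn, Slc2a12, Cab39l, Gm43582, Tnni3, Sulf1, B4galnt3 and Gss, down to r = 0.77. Of these 20 genes, 11 were on the longer list, as were 33 of all 15738. Of the 20, 17 were above all other libraries in both high ones, as were 74 of the 15738. The value of r rests largely on those 2 libraries, so the count of 17 follows in large part from how the 20 were picked. The count of 11 was also taken with those 2 libraries in, and from a list chosen with earlier results of these data known. The size of the rise was small for some of the 20: Commd3 stood at 51.0 and 50.7 CPM against 41.7 to 49.4 CPM, and Gss at 18.1 and 16.2 CPM against 13.3 to 22.2 CPM.

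Other genes went against the pattern. The 5 lowest values of r were those of Zfp628 (−0.87), Gm14130, St3gal1, Sstr2 and Aldh3a1 (−0.81). Sstr2, a somatostatin receptor, stood at 7.17 and 5.5 CPM against 6.43 to 14.5 CPM. Of the 15738 genes compared, which do not include the 10, 74 were above all 16 other libraries in both high libraries and 54 were below. The values of r rest on those libraries: without them, 1 in place of 14 of the 50 genes most like the 10 came from the longer list.

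Markers of other tissue near the hippocampus, like those of some cell types within it, did not move alike in the 2 high libraries. Their part in the level of the 10 genes was not tested. The stroma and meninges list (15 genes, among them collagens, Ptgds and Igf2) summed to 336 CPM in untreated KO library 2, below the 567 and 622 CPM of its group, and 12 of the 15 genes were lowest there. In control library 1 it summed to 376 CPM, above the 275 and 269 CPM of its group, and 13 of the 15 were highest there. None of the 15 was above all other libraries in both high libraries. The sums of this list in the 2 high libraries lay inside the 199 to 947 CPM found elsewhere. Ependymal markers, genes of the ciliated cells that line the ventricles, summed to 64.6 CPM in untreated KO library 2 (group 65.9 and 62.6) and to 75.6 CPM in control library 1 (group 70.0 and 71.9), within or just above the 46.9 to 75.2 CPM elsewhere.

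The sum of the oligodendrocyte markers was the lowest of all in untreated KO library 2 (3227 CPM), where 5 of the 12 were lowest in the group. On the mean log2 scale that library, at 6.13, was inside the range of the 16 others (6.08 to 6.61). The sum was the second highest in control library 1 (4515 CPM), where all 12 were highest in the group. Enpp2, which these cells also make, was high in both. Endothelial markers summed to 301 CPM in untreated KO library 2, below the 332 and 358 CPM of its group, and 9 of the 10 genes were lowest there. In control library 1 they summed to 301 CPM as well, against 288 and 299 CPM in its group, and 6 of the 10 were highest there. Outside the high libraries the endothelial sum ran from 285 to 358 CPM. The blood list was highest of all in control library 1 (38.3 CPM) and next to lowest in untreated KO library 2 (24.6 CPM). Markers of thalamus and habenula summed to 92.2 and 115 CPM, against 85.6 to 118 CPM. Markers of astrocytes and microglia, cells of the hippocampus itself, were also split. In untreated KO library 2, 6 of 8 astrocyte and 6 of 8 microglia genes were lowest in the group. In control library 1, 6 of 8 and 7 of 8 were highest. The share of all genes that were lowest or highest in these libraries is not given here. None of these lists had a gene at 0 in every library.

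**Figure D5:**
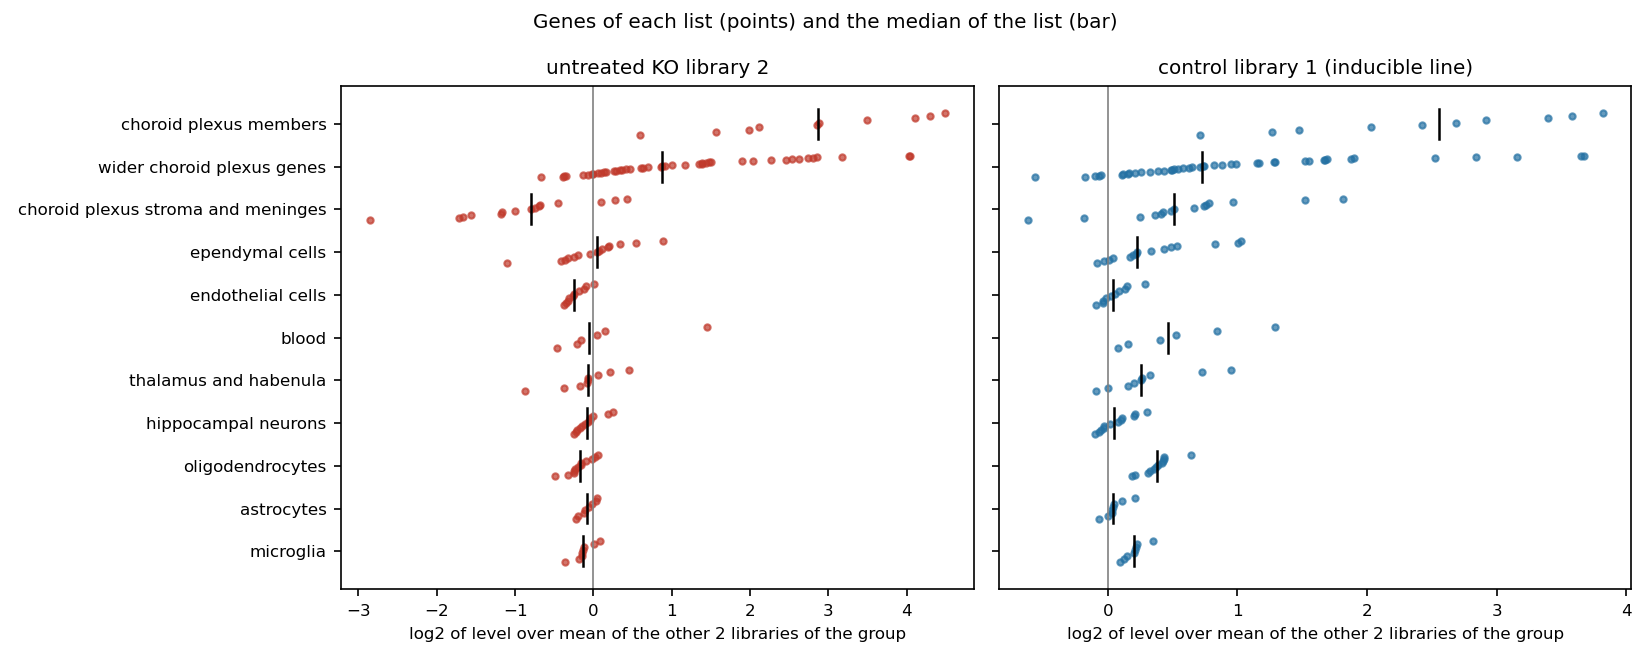
Log2 of the level in untreated KO library 2 (left) and control library 1 (right) over the mean of the other 2 libraries of the same group, for the genes of each list (points) and the list's median (bar); genes at 0 on either side are not drawn. The 10 choroid plexus genes lie right of 0 in both panels, while the stroma and meninges list lies mostly left of 0 in the first and right of 0 in the second.

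The receptors, enzymes and carriers that work with the 10 genes were read from a list of 27 partners. It holds receptors for lysophosphatidic acid, FGF23 and its receptors, folate carriers, thyroid hormone transporters and other bicarbonate transporters. They summed to 1397 and 1392 CPM in the high libraries, against 1188 to 1395 CPM elsewhere, and 1 of the 27 was above all other libraries in both. None was called in the KO or ifKO comparisons. 1 was called after novelty in wild type, where 0.384% of all genes were: Slc5a3, the inositol transporter that can pair with Kcne2, had a log2 fold change of 0.75 ± 0.14 (adjusted p = 0.0421), and 5 of 6 fits with a library left out did not call it.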

How the data were processed

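The authors deposited raw read counts per Ensembl gene, without normalization, in 18 files for 24 sample records, since the 6 libraries of the inducible line have a record for either read. The processing notes of the submitters name GRCm38, HTSeq 0.6.1, STAR 2.5.0c, SAMtools 1.3 and DESeq2, per the labels. The annotation release and the strand setting were not given in the sources used here. Symbols and positions came from GENCODE M21 (46488 of 47069 gene IDs). Reads in no feature (14.7 to 17.2%) and ambiguous reads (0.765 to 1.06%) were left out.

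CPM were computed with TMM factors in edgeR 4.0.16 (R 4.3.3). Tests were edgeR quasi-likelihood tests after filterByExpr (minimum count 10, minimum total 15), adjusted by Benjamini-Hochberg over every tested gene (threshold 0.05). The 12 libraries of the null line were fitted together, the 6 of the inducible line alone, and the difference between mutants over 18. The code was tested on simulated counts. The genes and lists were chosen with earlier results of these data known. The text names the 10 genes, the 20 most and 5 least like them, and up to 4 called genes of each list per comparison and direction. Genes of the longer list named by fold (Slc22a8 and Slc29a4) were chosen after their values were seen. Alternatives were DESeq2 1.42.0, RLE factors, other filters, a replicate block, other groupings, left-out libraries and the level of the 10 genes as a covariate.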

Additional observations from a re-analysis of the deposited data

How the results depend on the processing

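Counts of called genes depended most on the low-count filter. With no filter, 7 of the 10 genes were called higher in untreated KO, 9 lower in ifKO and 6 lower after novelty in KO. For the change of the KO effect with novelty 1 was called, and for the difference between mutants 9. With the filter none was called in any of these. The longer list had 6 calls in untreated KO without the filter, all higher (3 with it, all higher). In ifKO it had 11 without the filter, of which 10 were lower and 1 higher (1 with it, higher). Of all genes without the filter, 0.93% were called higher in untreated KO, 0.265% lower in ifKO and 0.0839% lower after novelty in KO. The shares were 0.00699% lower for the change of the KO effect and 0.211% higher for the difference between mutants. In untreated KO 347 genes were called without the filter in either direction (204 with it). Without the filter the standard error of Ttr in ifKO fell from 0.87 to 0.05, with control library 1 still in the fit. The 3 control pools held 343.6, 18.7 and 38.6 CPM of Ttr, so a p-value from that error does not measure the spread between pools. In untreated KO the standard error of Ttr fell from 1.01 to 0.47. Calls without the filter are given with this limit. DESeq2 called 2 of the genes in untreated KO (Ttr, adjusted p = 0.0128, and Kl, 0.00856) and 1, Ttr, for the difference between mutants (0.0204).

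Correlations of the deviations of same-numbered libraries ran from −0.196 to 0.242, so the numbers were not taken as pairs. With a replicate block, 1 of the 10 genes was called in untreated KO (Kl, adjusted p = 0.0295). In the longer list, untreated KO had 1 call with RLE factors, with the filter of 1 CPM in 3 libraries and with the covariate, and novelty had 1 with that filter or with only the groups compared (2 as reported). With the replicate block novelty also had 2, of which 1 was lower. With only the groups compared, 318 genes were called in untreated KO.

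Leaving out 1 library gave 0 to 2 of the 10 genes in untreated KO (2 without library 3 of the KO: Ttr and Kl), 1 to 2 of the longer list, 1 to 3 of it after novelty, and 121 to 149 of all genes (lowest without library 1 of the KO). Of the 204 genes, 146 were among the 149 called without untreated KO library 2. Log2 fold changes that turned sign ranged from −0.21 to 0.82 (Enpp2) and −0.58 to 1.29 (Otx2) in untreated KO, and from −0.17 to 0.24 (Kl), −2.20 to 0.39 (Kcne2), −2.40 to 0.54 (Slc4a5) and −1.66 to 0.23 (Aqp1) in ifKO. The covariate, which is built from the genes themselves, turned Enpp2 to −0.32, Folr1 to −0.0902, Clic6 to −0.25, Otx2 to −0.89 and Kcnj13 to −0.0745. With both high libraries left out, a choice made after seeing the data, Slc4a5 had −0.15 for the difference between mutants, and 1 of the 50 genes most like the 10 was on the longer list (14 otherwise). For the change of the KO effect with novelty, the fit with only the groups compared is the one reported. Causes of these changes were not tested beyond what each choice leaves out.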

Other observations

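In the list of stroma and meninges, 1 of 14 tested genes was called by edgeR in untreated KO and 1 of 13 in ifKO, both times Ogn, a matrix protein. It fell by 1.57 ± 0.35 on the log2 scale in untreated KO (adjusted p = 0.0475) and fell by 1.29 ± 0.15 in ifKO (adjusted p = 0.001). The call in untreated KO was lost in 5 of 6 fits with a library left out, the call in ifKO in none. The list as a whole, Ogn included, lay mostly on the same side. Negative values were 13 of 14 in untreated KO (median −0.45) and 12 of 13 in ifKO (median −0.34). The part of that tissue's amount in the value of Ogn was not tested. In the ependymal list, 1 of 15 genes was called, Cdhr4, which rose by 1.43 ± 0.24 in untreated KO (adjusted p = 0.0073, lost in 1 of 6 fits with a library left out) and by 1.60 ± 0.25 after novelty (adjusted p = 0.00361). Of the 12 hippocampal neuron markers, 1 was called, Spink8, a protease inhibitor gene. It rose by 1.24 ± 0.09 in untreated KO, by 0.88 ± 0.06 in ifKO and by 1.11 ± 0.09 in the KO mice exposed to novelty. The share of all tested genes called was 1.24% for untreated KO, 0.645% for ifKO and 1.34% for KO after novelty.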
